A study of Mus musculus with 4 samples.

Results

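The 10 genes described here are the CRTC coactivator genes Crtc2 and Crtc3, their DNA-binding partner Creb1, and 7 immediate early genes: Nr4a1, Egr1, Fos, Fosb, Fosl1, Jun and Junb. They were chosen by name, and 10 of 10 were found among the 15768 genes with values. All 10 passed the filter on low counts that left 12222 genes for testing. They were measured by RNA-seq in JoMa1.3, a line of mouse neural crest cells immortalised conditionally through an inducible c-Myc transgene. The question of the study was how loss of the kinase LKB1 acts in neural crest progenitors of the enteric nervous system.

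One group received pooled siRNAs targeting Stk11, which encodes LKB1 (labelled Lkb1 KD), and the other received a pool of non-targeting siRNAs (labelled WT). Both groups are cultures of 1 cell line at an siRNA concentration of 60 nM, with RNA taken after 72 h, and the labels name a pair of transfection reagents without assigning them to samples. Both carry the c-Myc transgene. The culture medium in the labels holds EGF at 10 ng/mL, FGF at 1 ng/mL and 10% chick embryo extract, with the supplements N2 at 1% and B27 at 2%. Growth factors that act on immediate early genes were thus present in both groups. Each group had 2 libraries, 1 in batch 1 and 1 in batch 2. Values are given below in the order control siRNA batch 1, control siRNA batch 2, Lkb1 siRNA batch 1, Lkb1 siRNA batch 2 unless stated otherwise.

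LKB1 phosphorylates and activates the salt-inducible kinases (SIKs), which phosphorylate CRTC proteins and hold them in the cytoplasm. Unphosphorylated CRTC enters the nucleus and joins CREB at cyclic AMP response elements (CREs) of target genes, which include Nr4a1, Fos and Fosb. Immediate early genes are transcribed within minutes of a growth factor, calcium or stress signal without new protein synthesis, and Fos and Jun proteins pair with each other to form the transcription factor AP-1. RNA-seq measures the RNA level of these genes and not the phosphorylation, location or activity of their proteins.

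Total gene counts ranged from 17426719 to 19324675. Stk11 itself was at 52.7, 52.1, 36.3 and 36.9 FPKM (fragments normalised to gene length and library size), so the knockdown was partial. Its count fell by 31.7%, a log2 fold change of -0.55 (SE 0.0659) with an adjusted p of 0.0378 by edgeR's quasi-likelihood test. Of 16 neural crest markers, 13 had a value and 10 were above a mean of 1 FPKM, among them Snai2, Tfap2b, Twist1 and Pax3, while Ednrb and Itga4 were at most 0.02 FPKM in every library. Of 7 enteric crest markers, 2 had a value and 1 was above a mean of 1 FPKM. Their sum was at most 2.8 FPKM in any library. Of 6 glia and Schwann cell markers, 4 had a value and 0 were above a mean of 1 FPKM. The summed level of 10 smooth muscle and fibroblast markers was 3557 and 3848 FPKM in control siRNA and 2997 and 3172 FPKM after Lkb1 siRNA, and its part in the results below was not tested. In that list 8 markers were above 1 FPKM and Cnn1 and Myh11 were at most 0.07 FPKM. The neuronal markers summed to 9.71, 9.49, 13.9 and 10.8 FPKM, with Elavl3 and Dcx at most 0.02 FPKM, and their part was not tested either. The endothelial and epithelial lists summed to at most 0.64 FPKM in any library. Of 6 blood markers, 3 had a value and 2 were above a mean of 1 FPKM, with sums of 6.08, 5.22, 4.67 and 4.15 FPKM. Of 5 melanocyte markers, 3 had a value and 1 was above a mean of 1 FPKM, with a sum of at most 1.62 FPKM. The part of either list in the results was not tested. In bulk cultures a smaller share of cells expressing a gene and less RNA per cell cannot be told apart.

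On the FPKM scale, which corrects for gene length, the 10 genes spanned from the middle to the top of the genes listed. Egr1, a zinc-finger transcription factor, was the highest, at 270.2, 323.6, 310.4 and 339.3 FPKM. Fos, at 145.8, 189.2, 206.6 and 194.8 FPKM, and Junb, at 139.0, 171.5, 190.5 and 183.5 FPKM, came next. The ranges of Fos and Junb overlapped, though Fos was above Junb within every library. Their levels were not tested against each other. Every Egr1 value lay above every Fos value. Jun followed at 53.8, 61.4, 58.9 and 58.4 FPKM, below all Junb values.

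Fosl1, the gene of the AP-1 subunit Fra-1, was at 28.9, 22.5, 27.6 and 23.7 FPKM. Crtc2, at 18.1, 17.4, 22.1 and 19.6 FPKM, overlapped with Fosb, at 13.6, 15.0, 22.5 and 16.2 FPKM. The lowest levels were those of Creb1, Nr4a1 and Crtc3. Creb1 was at 9.83, 9.20, 10.4 and 9.67 FPKM. Nr4a1, an orphan nuclear receptor, was at 5.72, 7.86, 9.43 and 9.15 FPKM and overlapped with both Creb1 above it and Crtc3 below it. Within every library Nr4a1 was below Creb1. Crtc3 was at 6.39, 6.24, 6.27 and 6.30 FPKM. Among all 15768 genes, the mean FPKM of Egr1 stood at the 98.2 percentile and that of Crtc3 at the 47.6 percentile.

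Promoter sequences are shown for the 4 immediate early genes with the largest fitted differences after Lkb1 siRNA and, beside them, for Jun, which had almost none. The sequences are the 250 bases before the transcription start from RefSeq (build GRCm38.p6; the authors' processing names GRCm39), written 5′ to 3′ on the strand of the gene. A promoter entry was found for 7 of the 10 genes, and none for Egr1, Crtc2 and Fosl1. Capitals mark the short core of a CRE (short CRE), TGACG, or its reverse complement, CGTCA.
Fos (chr12:85473640-85473889, plus strand): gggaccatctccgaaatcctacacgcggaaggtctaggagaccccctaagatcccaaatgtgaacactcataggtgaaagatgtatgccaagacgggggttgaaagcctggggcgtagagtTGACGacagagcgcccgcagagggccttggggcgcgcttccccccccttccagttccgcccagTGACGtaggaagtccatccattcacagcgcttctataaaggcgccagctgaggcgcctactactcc
Fosb (chr7:19310046-19310295, minus strand): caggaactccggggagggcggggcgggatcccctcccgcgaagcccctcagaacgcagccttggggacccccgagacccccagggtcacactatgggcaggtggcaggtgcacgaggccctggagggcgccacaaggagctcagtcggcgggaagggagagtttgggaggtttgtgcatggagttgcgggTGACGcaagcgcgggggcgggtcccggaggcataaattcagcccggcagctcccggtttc
Junb (chr8:84978749-84978998, minus strand): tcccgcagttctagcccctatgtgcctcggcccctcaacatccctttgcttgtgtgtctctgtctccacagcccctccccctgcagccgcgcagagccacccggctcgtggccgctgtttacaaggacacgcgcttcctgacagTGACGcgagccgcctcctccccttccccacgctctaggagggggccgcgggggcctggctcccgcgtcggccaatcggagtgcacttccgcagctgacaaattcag
Nr4a1 (chr15:101266596-101266845, plus strand): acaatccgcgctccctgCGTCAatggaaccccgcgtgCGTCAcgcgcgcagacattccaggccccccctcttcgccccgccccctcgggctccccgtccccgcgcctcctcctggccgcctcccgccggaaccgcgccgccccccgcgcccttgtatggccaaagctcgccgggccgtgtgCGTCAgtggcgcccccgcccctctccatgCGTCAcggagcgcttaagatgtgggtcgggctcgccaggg
Jun (chr4:95052223-95052472, minus strand): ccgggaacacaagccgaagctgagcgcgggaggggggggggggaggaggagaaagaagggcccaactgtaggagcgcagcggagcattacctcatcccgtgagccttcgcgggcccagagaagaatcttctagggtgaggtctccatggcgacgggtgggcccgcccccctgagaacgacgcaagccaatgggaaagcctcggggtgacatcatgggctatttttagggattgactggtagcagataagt

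Counting the base before the start as -1, the short CREs begin at -129 and -66 in Fos, at -60 in Fosb and at -106 in Junb. Nr4a1 holds 4, beginning at -233, -213, -69 and -40, all on the opposite strand. Jun, Creb1 and Crtc3 held none in the window. The search covered 300 bases, including 50 bases from the start, on both strands, and a short CRE was present in 20.8% of the 32851 RefSeq promoters of that length. A short CRE lies within every full CRE, TGACGTCA, but none of the 7 windows held the full element, which occurred in 1.79% of all promoters. None held the AP-1 site TGANTCA (7.81% of all promoters), the CArG box bound by serum response factor (1.63%) or the NR4A site AAAGGTCA (1.51%). The EGR site GCGNGGGCG was in the windows of Creb1, Fosb, Crtc3 and Nr4a1, against 5.55% of all promoters. A match describes letters in this window only and was not compared with any binding measurement. The windows printed were picked by the differences after Lkb1 siRNA, and a link between matches and differences was not tested.

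After Lkb1 siRNA, Nr4a1 and Fosb had the largest differences of the 10 genes in the fit over all 4 libraries, and Junb and Fos followed. This order did not hold in every subset: within batch 2 the log2 difference of Crtc2 (0.12) was above those of Fosb (0.09), Junb (0.07) and Fos (0.02). Without the control siRNA library of batch 1, Crtc2 (0.20) was above Junb (0.10) and Fos (0.06), and without the Lkb1 siRNA library of batch 1, Fosb (0.15) was below Junb (0.20) and Fos (0.18). In both batches these 4 genes were higher with Lkb1 siRNA than with control siRNA. None of the 10 genes passed the main test at an adjusted p of 0.05 (edgeR's quasi-likelihood test), where 0.0818% of all genes were called. At an unadjusted p under 0.05, 3 were called, all higher (Nr4a1, Fosb and Junb), against 5.61% of all genes called higher at that threshold. DESeq2 and limma, run on the same libraries without the block, called 0 of the 10. Both called few genes in all. DESeq2 called 16 higher and 31 lower of the 11772 genes with an adjusted p, and limma on log2(FPKM + 1) called 0 of 11013. Their 0 of 10 therefore does not set these genes apart.

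**Figure D1:**
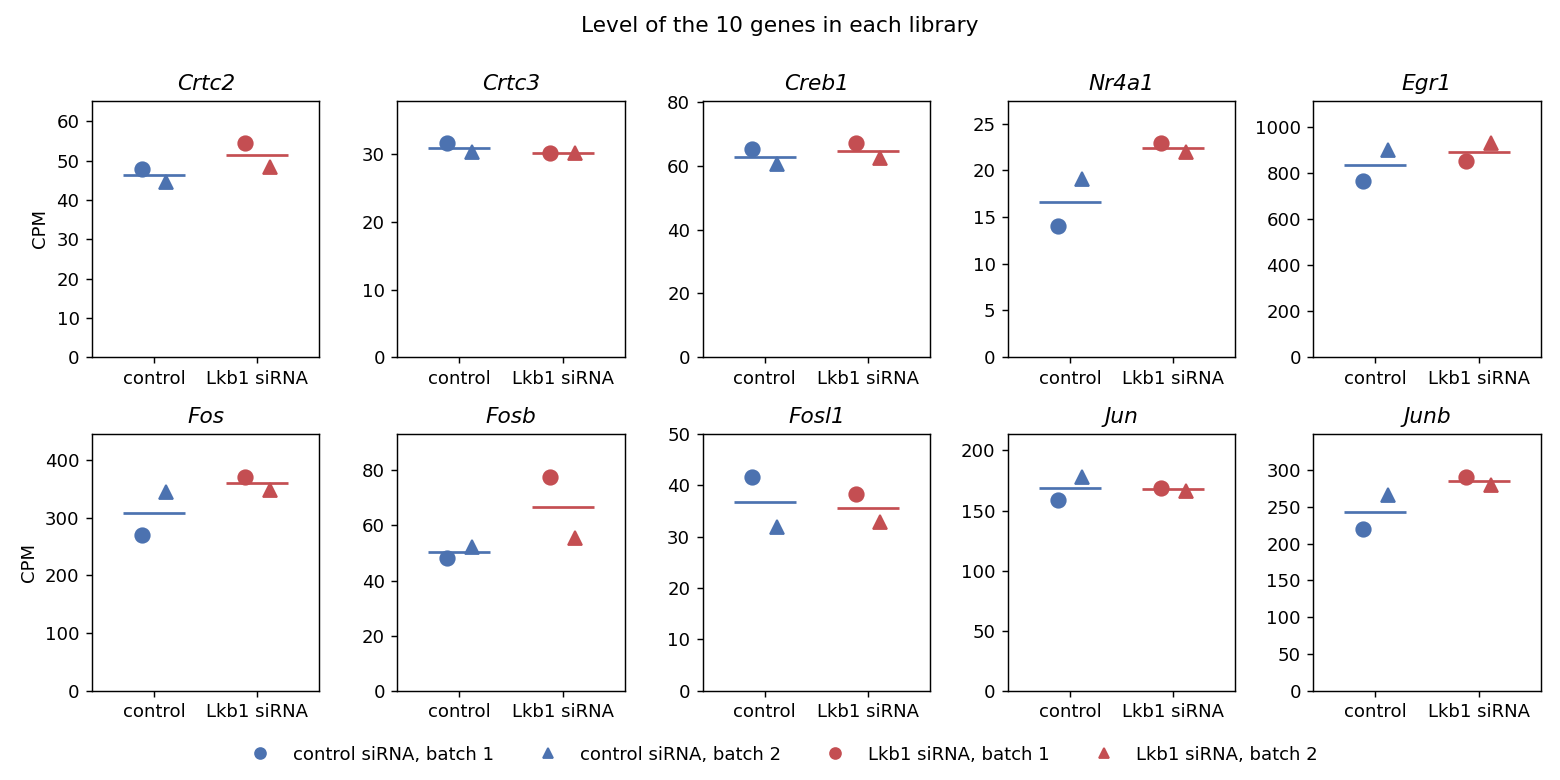
CPM (y axes from 0) of each of the 10 genes in the 4 libraries, circles for batch 1 and triangles for batch 2, with bars at the group means. In Fos, Junb, Jun, Egr1, Fosb and Nr4a1 the lowest point is the control siRNA library of batch 1.

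Nr4a1 was at 14.0, 19.1, 22.9 and 22.0 CPM (counts normalised to library size). Both Lkb1 siRNA libraries lay above both control libraries, and the control library of batch 1 was the lowest. The log2 fold change was 0.44 (SE 0.142, 95% interval 0.11 to 0.76, adjusted p = 0.325, edgeR), with 0.71 within batch 1 and 0.20 within batch 2. This gene had the fewest reads of the 10, with a counting error of 6.24% in the control library of batch 1.

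Fosb, whose product is a partner of Jun proteins in AP-1, was at 48.2, 52.2, 77.7 and 55.6 CPM. The groups did not overlap, but the Lkb1 siRNA library of batch 1 stood well above the other 3. The log2 fold change was 0.41 (SE 0.136, 95% interval 0.10 to 0.71, adjusted p = 0.335, edgeR), with 0.69 within batch 1 and 0.09 within batch 2.

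Junb, at 219.8, 266.3, 291.2 and 279.6 CPM, and Fos, at 270.6, 344.8, 371.0 and 348.5 CPM, had nearly the same profile over the 4 libraries. In each gene 1 control library was low and the other 3 were close together, and the groups did not overlap. The log2 fold change of Junb was 0.23 (SE 0.0915, 95% interval 0.03 to 0.44, adjusted p = 0.393, edgeR). For Fos it was 0.23 (SE 0.105, 95% interval -0.01 to 0.46, adjusted p = 0.464, edgeR). Within batch 1 the differences were 0.41 for Junb and 0.46 for Fos, and within batch 2 they were 0.07 and 0.02.

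**Figure D2:**
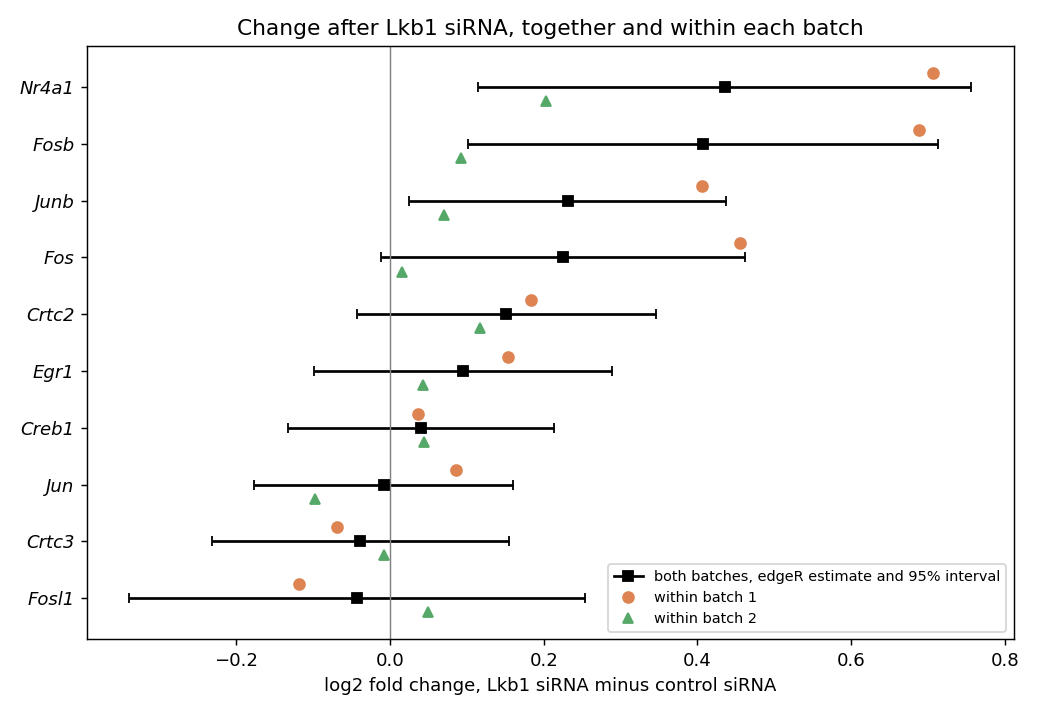
Log2 fold change of each of the 10 genes (x axis, Lkb1 siRNA minus control siRNA), with squares and 95% intervals from the edgeR fit over both batches, circles for batch 1 and triangles for batch 2. The batch 1 points of Nr4a1, Fosb, Junb and Fos lie between 0.41 and 0.71 and their batch 2 points between 0.02 and 0.20.

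Egr1 was at 767.4, 902.0, 853.8 and 929.4 CPM, and its groups overlapped. Its log2 fold change was 0.10 (SE 0.0862, 95% interval -0.10 to 0.29, adjusted p = 0.72, edgeR). The other AP-1 genes among the 10 had differences near 0. Jun was at 159.0, 178.1, 168.8 and 166.5 CPM, with a log2 fold change of -0.01 (95% interval -0.18 to 0.16). Fosl1 was at 41.7, 31.8, 38.4 and 33.0 CPM, with a log2 fold change of -0.04 (95% interval -0.34 to 0.25). Both genes overlapped between the groups and took opposite signs in the batches, 0.09 and -0.10 for Jun and -0.12 and 0.05 for Fosl1, and the sign of their fitted change reversed with scaling (Jun) or unit (both). Fosl1 overlaps the gene Ccdc85b in the RefSeq table, and whether the counting used the strand is not given in the sources used here, so its counts are uncertain.

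Of the coactivator genes, Crtc2 was at 47.9, 44.6, 54.4 and 48.4 CPM. The groups did not overlap, though the control library of batch 1 and the Lkb1 siRNA library of batch 2 were almost level. The log2 fold change of Crtc2 was 0.15 (SE 0.0864, 95% interval -0.04 to 0.35, adjusted p = 0.547, edgeR). Crtc3 was at 31.7, 30.4, 30.2 and 30.2 CPM, with both Lkb1 siRNA libraries below both controls by a small margin. Its log2 fold change was -0.04 (95% interval -0.23 to 0.16, adjusted p = 0.898, edgeR), and its 4 values spanned 0.07 on the log2 scale, a smaller span than in most genes (percentile 3.99). The noncoding genes Gm15880 and Gm51450 overlap Crtc3, so its counts carry the same uncertainty as those of Fosl1.

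Creb1 encodes the factor that CRTC proteins join on DNA. It was at 65.4, 60.5, 67.1 and 62.3 CPM, with overlapping groups and a log2 fold change of 0.04 (95% interval -0.13 to 0.21, adjusted p = 0.879, edgeR). In both groups its batch 1 library was the higher one.

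Counted over the 10 genes, the CPM values of the groups did not overlap in 5 genes that were higher (Fos, Junb, Crtc2, Fosb and Nr4a1), against 21.2% of all genes. They did not overlap in 1 gene that was lower (Crtc3), against 21.4% of all genes. Both batches gave a higher value with Lkb1 siRNA in 7 of the 10, against 33.8% of all genes, and 2 of the 10 (Jun and Fosl1) had opposite signs, against 32.8% of all genes. The control siRNA library of batch 1 was the lowest of the 4 libraries in 6 of the 10 (Fos, Junb, Jun, Egr1, Fosb and Nr4a1), against 27% of all genes. The median log2 fold change of the 10 was 0.12, with 0.17 within batch 1 and 0.05 within batch 2, and that of all genes was 0.0005.

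**Figure D3:**
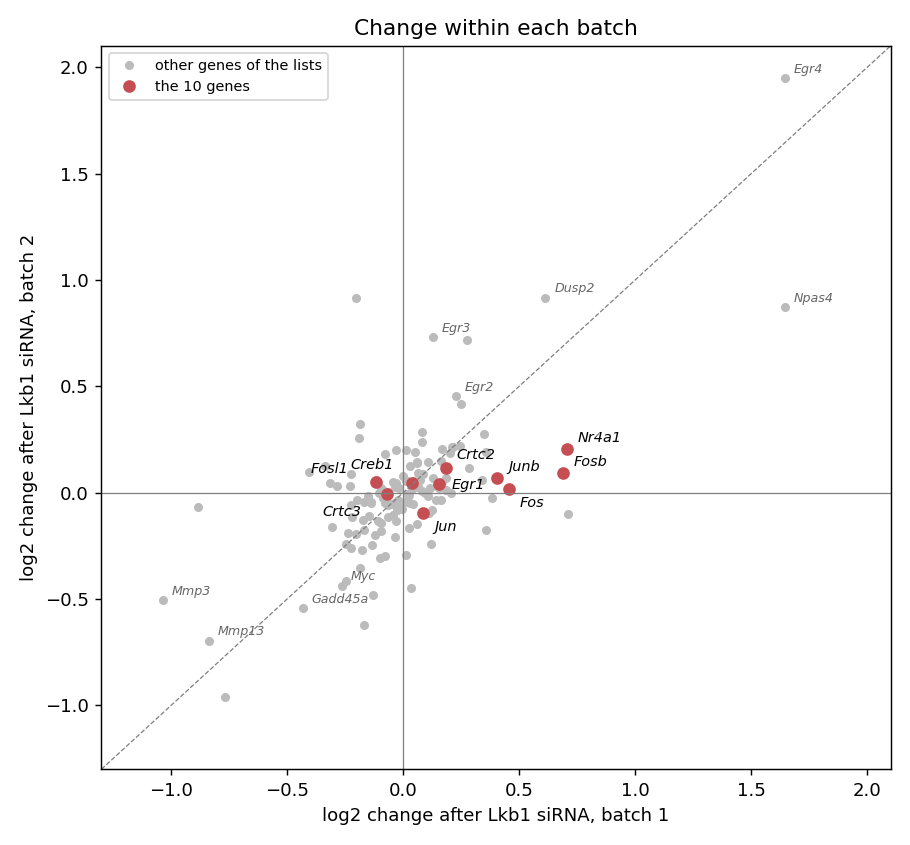
Log2 change after Lkb1 siRNA within batch 1 (x axis) against batch 2 (y axis) for the 10 genes (red) and the other tested genes of the lists (grey), with a dashed line of equal change. Nr4a1, Fosb, Fos and Junb lie below the line with positive values on both axes, whereas Egr2, Egr3, Egr4 and Dusp2 lie above it.

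With batch as a replicate block, 4 of the 10 genes were called higher and 0 lower, against 6.59% of all genes called higher and 6.99% lower. Nr4a1 passed at an adjusted p of 9.6e-05, Junb at 5.8e-05, Fos at 0.00148 and Fosb at 0.00203 (edgeR with the block), with log2 fold changes of 0.44, 0.24, 0.23 and 0.39. That fit leaves 1 residual degree of freedom per gene and takes its spread almost wholly from other genes. DESeq2 with the same block called 0 of the 8 members it gave an adjusted p, with Junb at 0.692, Fos at 0.837 and Fosb at 0.788, while Nr4a1 received none. Over all genes, DESeq2 with the block called 44 higher and 80 lower of the 5975 with an adjusted p. Its 0 of 8 therefore does not set these genes apart.

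The calls also moved with single libraries. Without the control siRNA library of batch 2, 3 of the 10 passed the main test, against 1.10% of all genes called higher: Nr4a1 (log2 fold change 0.68, adjusted p = 0.00502), Fos (0.41, adjusted p = 0.00652) and Junb (0.38, adjusted p = 0.0117, all edgeR). Without the Lkb1 siRNA library of batch 2, Fosb alone passed (0.63, adjusted p = 0.000337, edgeR), against 0.194% of all genes called higher. Without the control siRNA library of batch 1, the log2 fold changes of Nr4a1, Fosb, Junb and Fos were 0.23, 0.35, 0.10 and 0.06. Without the Lkb1 siRNA library of batch 1, they were 0.41, 0.15, 0.20 and 0.18. The group left with 1 library in these fits is assumed to vary like the other group.

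Between the batches themselves, with the group in the model, 2 of the 10 genes passed. Egr1 was higher in batch 2, with a log2 difference of 0.18 (SE 0.0448, adjusted p = 0.00173, edgeR), against 6.30% of all genes called higher. Fosl1 was lower in batch 2 by a log2 difference of -0.31 (SE 0.0724, adjusted p = 0.000721, edgeR), against 6.62% of all genes called lower. The batch difference of Egr1 was larger than its difference between the siRNA groups, and DESeq2 and limma did not call it (limma adjusted p = 0.0542).

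Fos and Junb had the highest levels of the Fos and Jun families. Over Fos, Fosb, Fosl1, Fosl2, Jun, Junb and Jund, the summed level was 425.3, 508.2, 554.1 and 521.8 FPKM. Fos made up 34.3 to 37.3% of it and Junb 32.7 to 35.2%. Fosb made up 3.20, 2.94, 4.07 and 3.11%, so its highest share was in the Lkb1 siRNA library of batch 1. The ratio of summed Fos-type to summed Jun-type FPKM was 0.890, 0.902, 0.942 and 0.901, with the same library again the highest. Jund, at 32.2, 34.3, 35.9 and 32.6 FPKM, and Fosl2, at 11.99, 14.5, 12.1 and 12.6 FPKM, had overlapping groups.

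Among the 3 CRTC genes, Crtc2 made up 49.1 to 53.9% of the summed FPKM, Crtc1 30.9 to 34.1% and Crtc3 15.3 to 18.0%. The sum was 35.5 FPKM in either control library, against 41.0 and 39.2 FPKM after Lkb1 siRNA. Over all genes compared, log2 fold changes on FPKM (limma) were a median of 0.0354 above those of the main fit. This offset also enters the sums of the Fos and Jun families. Crtc1, at 11.0, 11.9, 12.7 and 13.4 FPKM, had a log2 fold change of 0.16 (adjusted p = 0.458, edgeR). Neither Crtc1 nor Crtc2 passed the test, and both were higher in both batches.

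**Figure D4:**
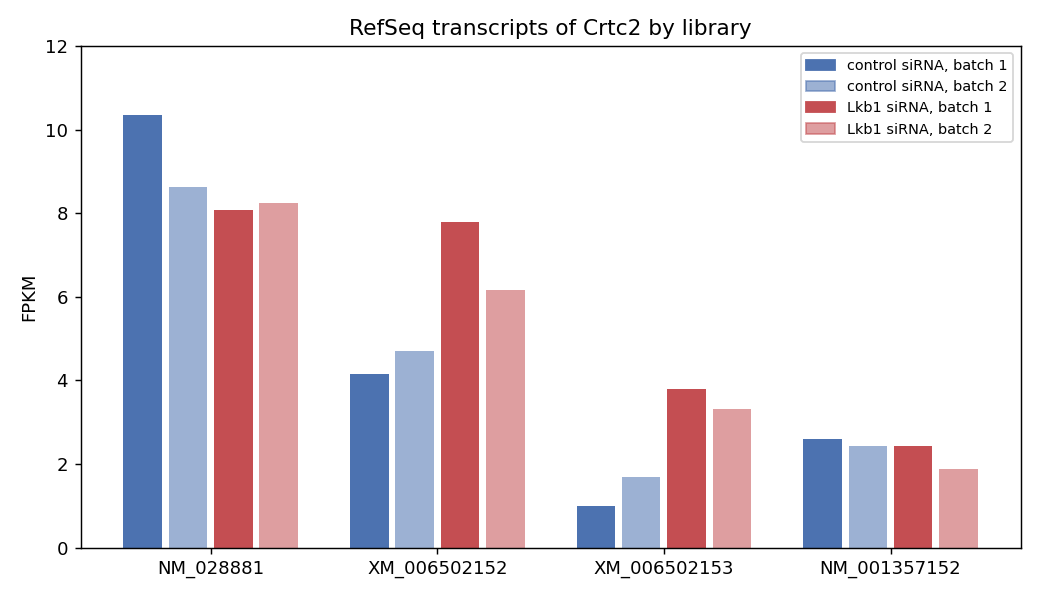
FPKM (y axis, from 0) of the 4 RefSeq transcripts of Crtc2, with a bar for each library, blue for control siRNA and red for Lkb1 siRNA, and paler bars for batch 2. NM_028881 is lower in both libraries of Lkb1 siRNA and XM_006502152 and XM_006502153 are higher in both.

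At the level of transcripts the 10 genes had 32 listed entries, 26 of which were tested, and 5 genes had a single one. Of the Crtc2 FPKM, the transcript NM_028881 made up 57.1 and 49.5% in control siRNA and 36.5 and 42.1% in Lkb1 siRNA. XM_006502152 made up 22.97 and 26.95% in control siRNA and 35.2 and 31.4% in Lkb1 siRNA. XM_006502153 made up 5.52 and 9.63% in control siRNA and 17.2 and 16.9% in Lkb1 siRNA. NM_001357152 made up 14.4 and 13.9% in control siRNA and 11.0 and 9.6% in Lkb1 siRNA.

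No transcript in the series passed at an adjusted p of 0.05 (0% of 34279, edgeR, also with the block). At an unadjusted p under 0.05, 3 of the 26 were called, against 6.75% of all transcripts: XM_006502152 (log2 fold change 0.61, SE 0.193, adjusted p = 0.701) and XM_006502153 (1.36, SE 0.386, adjusted p = 0.687) of Crtc2, and XM_006495651 of Creb1. With the replicate block 1 of the 26 was called at that threshold, the Creb1 transcript. It was at 0.57 and 0.82 FPKM in control siRNA and was listed at 0 in both Lkb1 siRNA libraries. The uncertainty of dividing reads among transcripts of one gene was not corrected for.

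Around the 10 genes, 6 lists covered the same pathways, and their counts below leave the 10 genes out. None of the genes in these lists passed the main test. Together they held 133 tested genes, of which 13 were called higher and 19 lower with the replicate block, 9.77 and 14.3% against 6.59 and 6.99% of all genes.

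The CREB and CRTC machinery comprised partners, kinases and phosphatases of CRTC. Of 17 genes tested, 8 had higher and 9 lower values, with a median log2 fold change of -0.005, and with the block 1 was called in each direction. Ep300, a histone acetyltransferase that CREB recruits, was called higher, at 111.0, 116.9, 127.6 and 133.0 CPM (log2 fold change 0.19, adjusted p = 0.00219 with the block, edgeR). Sik2, one of the SIK kinases that LKB1 activates, was called lower, at 34.9, 37.4, 29.8 and 31.3 CPM (log2 fold change -0.24, adjusted p = 0.014 with the block, edgeR). Sik1, itself a CREB target, was at 75.1, 70.2, 84.1 and 68.5 CPM with overlapping groups. The highest levels in the list were those of the protein kinase A subunit genes Prkar1a and Prkaca.

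Of the 12 other AP-1 subunits tested, 6 had higher and 6 lower values, with a median of -0.002. With the block, Mafg, a small Maf protein gene, was called higher, at 88.9, 89.6, 99.9 and 103.2 CPM. Jdp2, a repressor of AP-1, was called lower, at 39.5, 40.4, 33.2 and 30.3 CPM (log2 fold change -0.33, adjusted p = 0.000193 with the block, edgeR). Neither gene overlapped between the groups.

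Of the 37 other immediate early genes tested, 23 had higher and 14 lower values, with a median of 0.05. With the block 5 were called higher (Dusp2, Egr3, Egr2, Zfp36 and Egr4) and 5 lower (Myc, Gadd45a, Gadd45g, Rhob and Ccn1). Dusp2, a phosphatase gene that acts on ERK, was at 17.5, 11.7, 26.7 and 22.1 CPM, with both Lkb1 siRNA libraries highest (log2 fold change 0.74, SE 0.175, adjusted p = 0.196 without and 3.1e-13 with the block, edgeR). The Egr1 relative Egr2 was at 17.4, 19.0, 20.3 and 26.1 CPM, without overlap. Egr3, at 24.0, 12.7, 26.2 and 21.1 CPM, overlapped between the groups, and its batch difference (log2 -0.59) was larger than that after siRNA (0.37). Zfp36 and Gadd45g overlapped too. Their batch differences (log2 0.46 and 0.62) were larger than those after siRNA (0.18 and -0.34).

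Egr4 rested on 6, 4, 18 and 15 counts, which limits its log2 fold change of 1.75 (SE 0.479). Npas4, a calcium-responsive factor at 5, 9, 15 and 16 counts, did not pass even with the block (log2 fold change 1.18, adjusted p = 0.0831, edgeR). Of the NR4A relatives, Nr4a2 was at 8.57, 8.61, 7.63 and 7.63 CPM, with a log2 fold change of -0.17 (adjusted p = 0.689, edgeR), and Nr4a3, at 4, 1, 5 and 2 counts, was not tested. Nr4a1 and Nr4a2 thus differed in sign, but that difference was not tested.

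Among the immediate early genes called lower, Gadd45a, a growth arrest and DNA damage gene, was at 15.3, 16.2, 11.3 and 11.1 CPM (log2 fold change -0.49, adjusted p = 0.000249 with the block, edgeR). The endogenous and transgenic forms of Myc were not told apart in the table. Its values were 50.4, 44.7, 42.0 and 33.0 CPM (log2 fold change -0.34, adjusted p = 2.1e-05 with the block, edgeR), with both Lkb1 siRNA libraries below both controls. Ccn1, a matricellular protein gene and the highest of the list in FPKM, was at 697.9, 761.9, 652.4 and 673.0 CPM.

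Of 23 other CREB and CRTC target genes tested, 8 had higher and 15 lower values, with a median of -0.09. With the block, Mcl1, an antiapoptotic gene, was called higher, at 186.8, 175.5, 217.1 and 203.9 CPM. The 5 called lower were Ccnd1, Cited2, Nfil3, Inhba and Irs2. Ccnd1, at 596.3, 437.4, 481.8 and 391.4 CPM, overlapped between the groups. Its batch difference (log2 -0.37) was larger than that after siRNA (-0.24). Nfil3, a basic leucine zipper repressor, was at 34.5, 43.6, 30.3 and 34.1 CPM, and Irs2, the insulin receptor substrate gene, was at 49.9, 51.3, 45.4 and 43.3 CPM. The share of these targets called lower with the block was 21.7%, against 6.99% of all genes. The share called higher was 4.35%, against 6.59% of all genes. A high share called lower was not particular to this list. The share was larger still among the AP-1 target genes described below, a list that also holds Ccnd1. In the remaining lists it was smaller. The shares were not tested against each other.

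**Figure D5:**
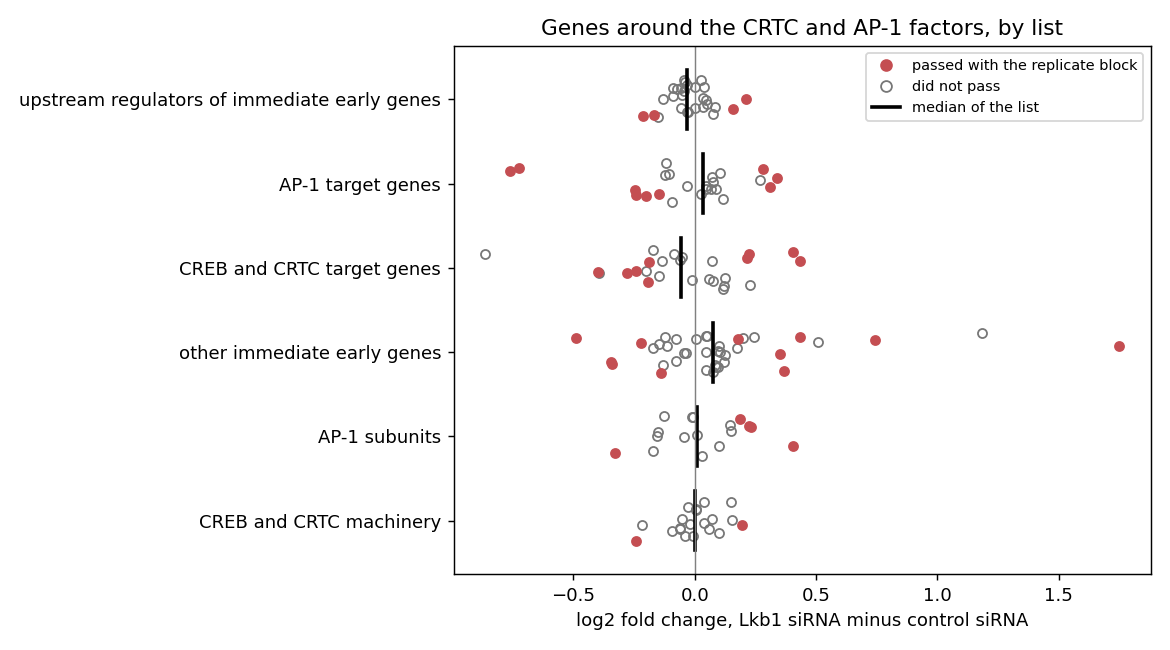
Log2 fold change (x axis, Lkb1 siRNA minus control siRNA) of each tested gene of the 6 lists, the 10 genes included where a list names them, with filled points for genes called with the replicate block and a bar at each list's median. The medians lie near 0, and filled points stand on both sides of 0 in each list.

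Of 24 AP-1 target genes tested, 13 had higher and 11 lower values, with a median of 0.04. The median was -0.15 within batch 1 and 0.02 within batch 2, and 7 genes were higher and 9 lower in both batches. With the block 3 were called higher (Vegfa, Mmp9 and Phlda1) and 6 lower (Mmp13, Ccnd1, Plau, Spp1, Mmp3 and Timp1). Matrix metalloproteinase genes stood on both sides. Mmp9 was at 52.6, 56.7, 62.5 and 75.7 CPM (log2 fold change 0.34, adjusted p = 2.1e-06 with the block, edgeR). Mmp13 was at 9.77, 10.4, 5.46 and 6.40 CPM (log2 fold change -0.76, SE 0.155, adjusted p = 0.134 without and 4.1e-06 with the block, edgeR). Mmp3, at 3.38, 3.79, 1.65 and 2.67 CPM, was lower too. Vegfa, the vascular growth factor gene, was at 101.6, 108.7, 129.2 and 131.6 CPM, without overlap between the groups.

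Of 28 upstream regulators tested, 12 had higher and 16 lower values, with a median of -0.03. With the block 2 were called higher (Fgfr1 and Mapk8) and 2 lower (Egfr and Rps6ka3). The medium held ligands of both growth factor receptors: Fgfr1 was at 502.7, 451.4, 532.0 and 533.1 CPM and Egfr at 197.0, 208.1, 167.1 and 182.7 CPM. In neither receptor gene did the groups overlap. Mapk8, the gene of the Jun kinase JNK1, was at 39.1, 37.7, 45.3 and 43.7 CPM, and Rps6ka3, which encodes the ERK-activated kinase RSK2, at 148.4, 133.1, 127.5 and 122.9 CPM.

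The profiles over the 4 libraries were compared between each gene and all others by the root mean square distance of log2 CPM after each gene's mean was taken off. For the 2 genes among the 10 that spanned over 0.5 on the log2 scale, the nearest genes are named. Nearest to Nr4a1 were Ankrd16 (distance 0.0239), Hoxd3 (0.0246) and Rexo5 (0.0264), and 86 of the 12211 other genes compared lay within 0.1. Nearest to Fosb were Prelid3a (0.0275), Aoc2 (0.0312) and Rybp-ps (0.049), and 25 lay within 0.1. Within the 10 genes, Fos and Junb were closest to each other (0.028), Fos was the one closest to Nr4a1 (0.115), and Junb was the one closest to Fosb (0.178). A distance over 4 libraries separates few genes and is given as a description.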

How the data were processed

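RNA-seq of 4 libraries was used as deposited. Tools named, per the submitters' processing notes, are RSEM 1.2.8, Bowtie2 2.2.5 and HISAT2 2.0.4, with build GRCm39; their roles and the annotation are not given in the sources used here. The deposited read counts are expected counts made by the authors: 5.73 to 5.97% of gene values per library are not whole. The authors' deposited FPKM values were used for levels. The deposited TPM values and the authors' normalised read counts, a signal, entered no test. Doubled decimal points were read as 1 point in 24 cells of the gene table and 56 of the transcript table. The table held 2 symbols turned into dates, which were restored through gene IDs.

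Rounded counts entered edgeR 4.0.16 under R 4.3.3 (quasi-likelihood F-test, robust, TMM factors between 0.979 and 1.014, minimum count 10). Benjamini-Hochberg adjustment ran over the 12222 genes or 34279 transcripts tested, and 0.05 was the threshold. CPM values used the TMM factors. The main fit had no block. DESeq2 1.42.0 and limma 3.58.1 on log2(FPKM + 1) were alternatives. On simulated counts for this comparison, 99 of 100 genes changed by 1 on the log2 scale were recovered. The counts were simulated from the mean counts of all genes listed, without a batch effect. Their spread beyond counting error was set below the 6.39% fitted to these libraries without the block. That recovery does not cover changes as small as those of the 10 genes.

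The labels give the batch with the replicate number, so numbers pair the libraries. Libraries of 1 batch deviated together from the means of their groups (correlation 0.323), and the first 2 principal components held 42.5 and 37.7% of the variance. Beyond number and batch, nothing in the labels makes the cultures separate, so p-values measure the spread between these libraries, which may be technical.

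The 10 genes and the lists were chosen with earlier results of these data known. Named are the 10 genes, Stk11, list genes that passed with or without the block, the 3 of each list with the highest FPKM as space allows, and the genes nearest in profile. Crtc1, Sik1, Jund, Fosl2, Nr4a2, Nr4a3, Npas4 and the markers named are outside the rule and were picked with their values in view.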

Additional observations from a re-analysis of the deposited data

Results flagged for a closer look

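For 2 of the 10 genes the change after Lkb1 siRNA went in opposite directions in the batches, each of which held 1 library per group. Jun was higher with Lkb1 siRNA in batch 1 and lower in batch 2, and the log2 change of batch 1 minus that of batch 2 was 0.183. Fosl1 was lower in batch 1 and higher in batch 2, with a difference of -0.168. These differences were not tested. Opposite directions occurred in 32.8% of all genes tested.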

How the results depend on the processing

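For all genes, the main test called 4 higher and 6 lower. The counts were 2 and 1 with library sizes in place of TMM, 13 and 32 with every gene of at least 1 count, 2 and 1 with a minimum of 5 CPM, 16 and 31 with DESeq2, and 44 and 80 with DESeq2 and the replicate block. They were 806 and 854 with the edgeR replicate block and 0 and 0 with limma on FPKM at either pseudocount and without a filter. Leaving out each library in turn gave 24 to 136 higher and 42 to 143 lower. Of the 10 genes, 4 passed with the replicate block (Nr4a1, Junb, Fos and Fosb) and 0 to 3 when a library was left out, against 0 in the main test. The block changed no call of the other 6 genes. Between batches, 770 genes were higher in batch 2 and 809 lower, against 45 and 62 with DESeq2 and 200 and 155 with limma, and the 2 calls among the 10 genes became 0 with DESeq2, which gave an adjusted p for 4 of them, and 1 with limma. Signs reversed for Jun (0.0237 with library sizes, 0.0294 with limma at a pseudocount of 1, with or without a filter, and 0.0299 at 0.1) and Fosl1 (0.00432 with limma at a pseudocount of 1, with or without a filter, and 0.00472 at 0.1). Leaving out a library moved Jun from -0.0872 to 0.0752, Fosl1 from -0.227 to 0.164, Creb1 from -0.0166 to 0.0973 and Egr1 from -0.0168 to 0.215. Over the same fits Nr4a1 ranged from 0.23 to 0.68, Fosb from 0.15 to 0.63, Junb from 0.10 to 0.38, Fos from 0.06 to 0.41, Crtc2 from 0.07 to 0.24 and Crtc3 from -0.07 to -0.01. Against the main fit, the log2 fold change over all genes shifted by a median of 0.0324 with library sizes and 0.0354 with limma at a pseudocount of 1. The cause of the shifts in single genes was not tested. With 2 libraries a group, 0 of the 34279 transcripts passed in every setting run. Depth limits the genes with few counts, such as Egr4 and Npas4.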
